A study of Mus musculus with 10 samples.

Results

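Rmst, a long non-coding RNA gene of chromosome 10, had 14 isoforms in the table of transcript levels, out of 20741 long non-coding transcripts in all. They were taken as all transcripts that GENCODE release M21 on GRCm38 assigns to the symbol Rmst, and all 14 of its annotated isoforms were found. Rmst was chosen by its summed level, which was lower in Sirt5 knockout than in wild-type ventricles of these same samples, so that difference is described below without a test. All samples were left ventricle tissue of C57BL/6 mice taken 6 weeks after surgical narrowing of the aortic arch (transverse aortic constriction, TAC), a model of pressure overload. The knockout group had 4 samples (replicates 2, 3, 4 and 5) and the wild-type group 6 (replicates 1, 3, 4, 5, 6 and 7). The question is the role in cardiac hypertrophy of SIRT5, a lysine deacylase found mostly in mitochondria. The design text describes male C57BL/6N mice of 5 weeks, conventional knockouts produced by CRISPR-Cas9, and a tamoxifen-inducible Cre-ERT2 system given 1 mg tamoxifen a day for 10 days, ending 4 weeks before TAC. Neither the animals to which each system applies nor the promoter of the Cre are stated, and unloaded animals were not analysed here. No label says that samples came from separate animals, so the spread between them may be technical in part. Sirt5 and the messenger RNAs of heart muscle were not analysed here, so the labelled genotype and tissue could not be checked against them.

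Rmst (rhabdomyosarcoma 2 associated transcript) is known mainly from the nervous system. In the mouse embryo it marks the floor plate and midbrain, and in human neural stem cells its RNA binds the transcription factor SOX2 and is needed for neurons to form. The gene also carries microRNA genes in its introns, so its primary transcripts can serve as microRNA precursors. A long non-coding gene of this kind usually has several start sites and many splice forms, and short-read sequencing has to share each read among the forms that contain it.

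Rmst spans chromosome 10 from 92071037 to 92165170 on the minus strand of GRCm38 (ENSMUSG00000112117.1), and its isoforms fall into classes by where they begin. Rmst-207, Rmst-209, Rmst-210, Rmst-211, Rmst-213 and Rmst-214 begin at the upstream end of the gene. Their first bases differ, from 92165170 in Rmst-207 and Rmst-209 to 92164666 in Rmst-211, so the upstream start is a class and not a shared site. Rmst-205 and Rmst-212 begin inside it, in the first exon of Rmst-205. The other 6 (Rmst-201, Rmst-202, Rmst-203, Rmst-204, Rmst-206 and Rmst-208) are shorter annotated transcripts of 60 to 775 bases. Exons of the expressed classes are shown here from GENCODE M21 transcript sequences, as DNA letters on the strand of the RNA, so that the bases isoforms share and those they do not can be seen. The first is the opening exon of Rmst-213 (chr10:92165098-92165167). The next is its second exon (chr10:92164627-92164772), with the 122 bases with which Rmst-210 begins in capitals. The third is a 60-base exon (chr10:92162105-92162164) that Rmst-209, Rmst-210, Rmst-211 and Rmst-213 all hold, as do Rmst-203 and Rmst-208, and that is also annotated alone as Rmst-202. The fourth (chr10:92134964-92135095) differs in its start between isoforms, and the 16 capital bases are in Rmst-213 but not in Rmst-209. The last is the first exon of Rmst-205 (chr10:92103706-92103936), with the 24 bases that no other isoform holds in capitals.
Rmst-213 exon 1: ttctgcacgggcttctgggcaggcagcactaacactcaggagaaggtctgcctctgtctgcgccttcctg
Rmst-213 exon 2: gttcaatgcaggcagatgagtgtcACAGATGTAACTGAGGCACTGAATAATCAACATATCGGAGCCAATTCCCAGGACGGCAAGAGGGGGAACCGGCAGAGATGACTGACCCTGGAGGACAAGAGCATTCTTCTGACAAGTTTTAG
60-base exon: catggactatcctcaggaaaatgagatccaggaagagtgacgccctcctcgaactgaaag
Rmst-213 exon 6: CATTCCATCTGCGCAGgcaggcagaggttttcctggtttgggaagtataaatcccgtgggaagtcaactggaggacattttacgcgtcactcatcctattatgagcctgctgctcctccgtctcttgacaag
Rmst-205 exon 1: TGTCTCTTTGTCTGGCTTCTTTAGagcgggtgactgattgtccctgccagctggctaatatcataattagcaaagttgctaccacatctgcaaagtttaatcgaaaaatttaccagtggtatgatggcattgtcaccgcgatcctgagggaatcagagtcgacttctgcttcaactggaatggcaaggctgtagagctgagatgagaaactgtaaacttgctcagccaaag

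The 2 microRNA genes sit in different classes of isoform. Mir1251 (chr10:92137140-92137223) lies in an intron of Rmst-203, Rmst-209, Rmst-210, Rmst-211, Rmst-213 and Rmst-214, and Mir135a-2 (chr10:92072086-92072185) lies only in introns of Rmst-205 and Rmst-212. Their 5′ arm mature sequences, from RefSeq on GRCm38.p6, are shown because they belong to introns of different isoforms, with the seed (bases 2 to 8) in capitals. MicroRNA levels were not analysed here.
mmu-miR-1251-5p: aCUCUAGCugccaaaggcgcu
mmu-miR-135a-5p: uAUGGCUUuuuauuccuauguga

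**Figure D1:**
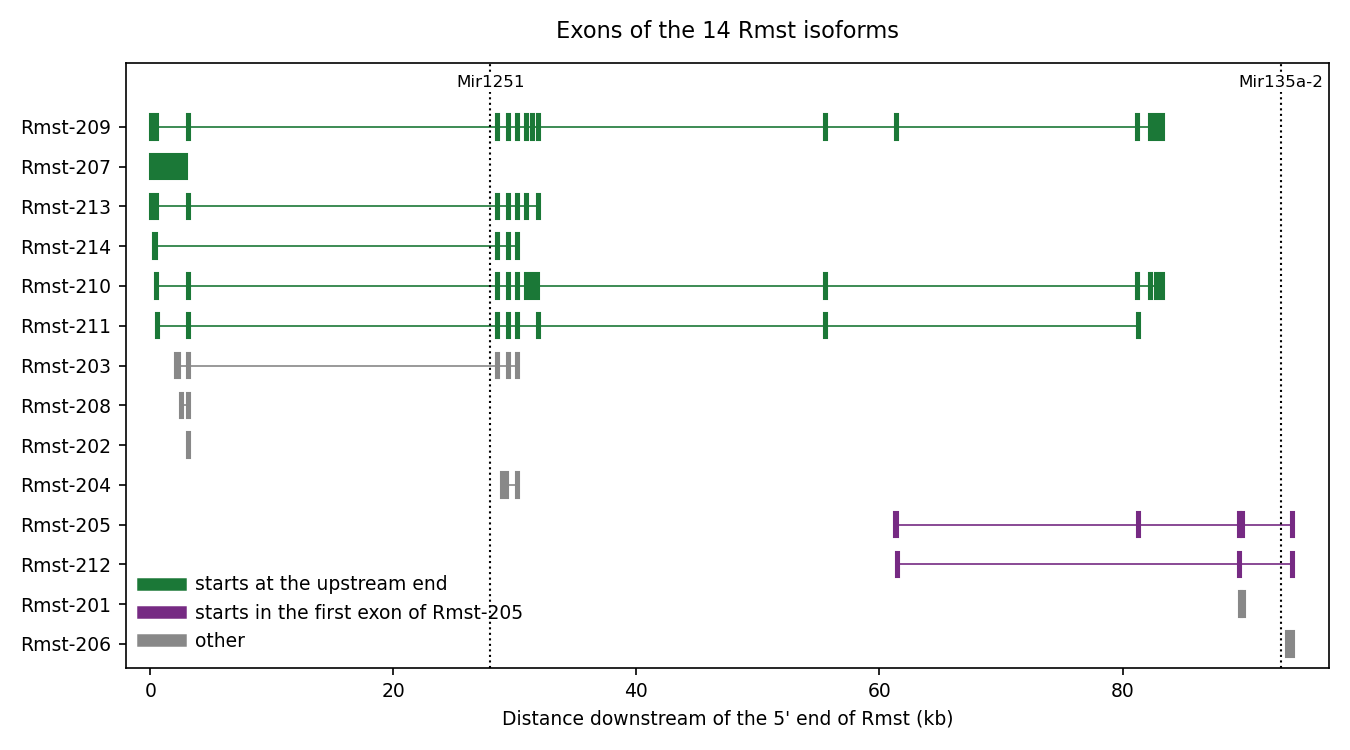
Exons (boxes, drawn at least 0.25 kb wide so that they can be seen) and introns (lines) of the 14 Rmst isoforms, one per row, against the distance in kb downstream of the 5′ end of the gene; colours give the class of start and dotted lines the microRNA genes. The 6 isoforms of the upstream start begin at the left, and Rmst-205 and Rmst-212 span Mir135a-2 at the right.

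Levels are given in FPKM, fragments divided by transcript length in kilobases and by library size. Knockout replicate 5 stands apart from the other libraries, with Malat1, a nuclear RNA, at 951 FPKM against 59.8 to 78.9 FPKM in the other knockout samples and 58.4 to 81.8 FPKM in wild type. The Rmst sum and the shares of its leading isoforms are therefore given with and without it.

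Rmst was among the weaker annotated genes that could be followed. Its mean FPKM, summed over isoforms, ranked 221 of the 261 annotated genes with a mean of at least 1 FPKM, all from this set of long non-coding transcripts. The sum stood at 0.825, 0.815, 0.427 and 0.140 FPKM in knockout replicates 2, 3, 4 and 5, against 1.28, 1.21, 1.41, 2.15, 1.60 and 1.43 FPKM in wild-type replicates 1, 3, 4, 5, 6 and 7. The highest knockout value was under the lowest wild-type value, and knockout replicates 4 and 5 lay lowest. The means were 0.552 ± 0.331 FPKM in knockout and 1.51 ± 0.342 FPKM in wild type (SD, n = 4 and n = 6), so the knockout mean was 36.5% of the wild-type mean, a difference of -0.71 on the log2(FPKM + 1) scale, which understates the change of a gene this low. Of the 1122 genes and assembled loci tested, 24 (2.14%) were lower in knockout without overlap of the groups. Because Rmst was chosen for this contrast, nothing is read from its place among them. In bulk tissue, fewer cells that make the RNA and less RNA per cell cannot be told apart.

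The level rests on few sequenced fragments. The smallest steps of the FPKM values put the libraries at 22.7 to 25.8 M mapped fragments in knockout and 24.7 to 29.8 M in wild type, with means of 24.1 ± 1.30 M in knockout and 26.7 ± 2.01 M in wild type (SD, n = 4 and n = 6; exact permutation p = 0.0571, two-sided). The part of depth in the Rmst values was not tested. On that basis all Rmst isoforms together took 35.6, 34.5, 17.3 and 5.28 estimated fragments in knockout replicates 2, 3, 4 and 5. In wild-type replicates 1, 3, 4, 5, 6 and 7 they took 51.0, 37.2, 61.8, 82.5, 92.1 and 56.5. Knockout replicate 5 had the fewest fragments, and knockout replicates 2 and 3 came close to wild-type replicate 3. The estimates need not be whole, since reads are shared among isoforms, and the intervals below cover counting error only.

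Counted as fragments, with no division by isoform length, the groups came closer than in summed FPKM. Knockout replicate 3, the highest of its group, had 1.43 fragments per M mapped fragments (FPM; 95% exact Poisson interval 0.995 to 2.00). Wild-type replicate 3, the lowest of its group, had 1.47 FPM (1.04 to 2.02), so these intervals overlapped almost wholly. Pooled over libraries, the knockout group had 92.7 fragments or 0.963 FPM (0.777 to 1.18), against 381 fragments or 2.38 FPM (2.15 to 2.63) in wild type. The pooled intervals treat estimated fragments as counts and leave out the spread between libraries. Knockout replicate 5 alone had 0.223 FPM (0.0753 to 0.510), below the interval of knockout replicate 3. The means over samples were 0.950 ± 0.572 FPM in knockout and 2.37 ± 0.716 in wild type (SD, n = 4 and n = 6).

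**Figure D2:**
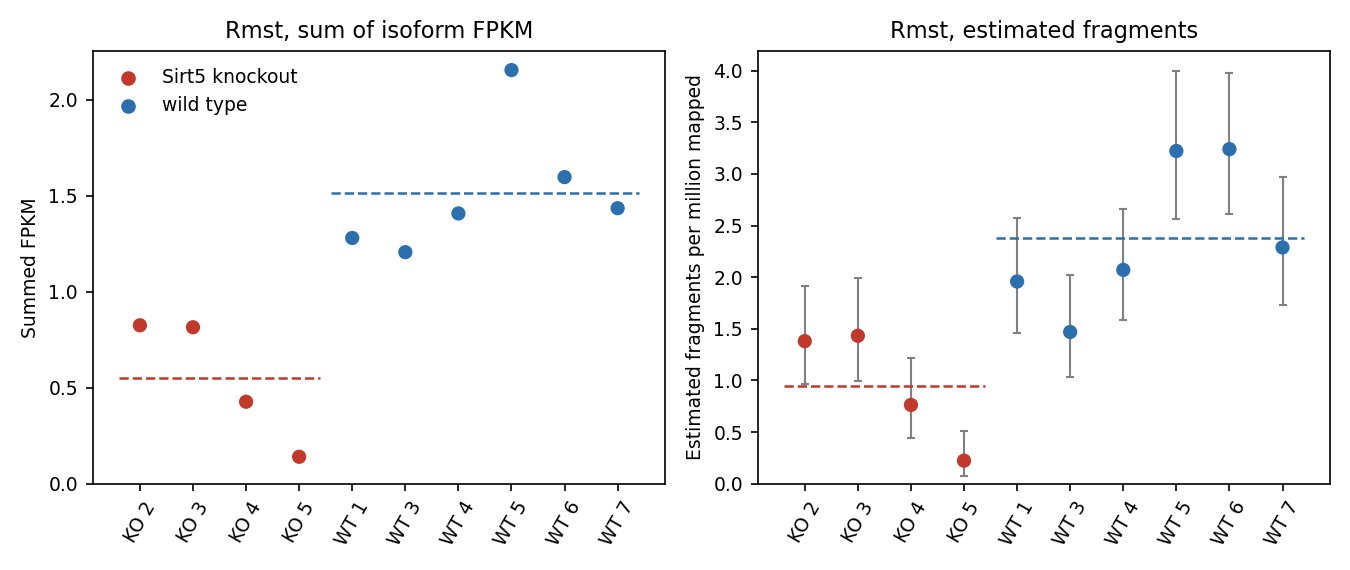
Rmst in each library (red, Sirt5 knockout; blue, wild type; KO and WT numbers are replicates), with dashed lines at the group means: left, summed FPKM; right, FPM with 95% exact Poisson intervals. No knockout point reaches a wild-type point in either panel, and on the right KO 3 at 1.43 and WT 3 at 1.47 nearly meet.

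Without knockout replicate 5, the Rmst mean was 0.689 ± 0.227 FPKM in knockout and 1.51 ± 0.342 FPKM in wild type (SD, n = 3 and n = 6). On the fragment scale the means were then 1.19 ± 0.373 FPM in knockout and 2.37 ± 0.716 FPM in wild type (SD, n = 3 and n = 6). The knockout mean was then 45.5% of the wild-type mean in FPKM and 50.2% in FPM.

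Of the 14 isoforms, 10 were above 0 in at least 1 sample, 3 were above 0 in every sample (Rmst-205, Rmst-209 and Rmst-210), and 4 were listed at 0 throughout (Rmst-202, Rmst-206, Rmst-208 and Rmst-214). For those listed at 0, a floor of 3 fragments per library allows up to 0.159 to 0.209 FPKM for Rmst-214 (633 bases) and up to 0.325 to 0.428 FPKM for Rmst-206 (309 bases), more than many of the values below. For Rmst-208 (168 bases) and Rmst-202 (60 bases) the floor is higher still, at 0.599 to 0.788 and 1.68 to 2.21 FPKM, so these short forms were not measurable at this depth. The heat map of isoforms shows all of these values. An exact 0 can also be a failed estimate, since Rmrp, a short RNA that every cell needs, is listed at 0 in knockout replicate 5 and wild-type replicates 3, 5 and 6. Isoforms with a 0 are therefore given by library.

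**Figure D3:**
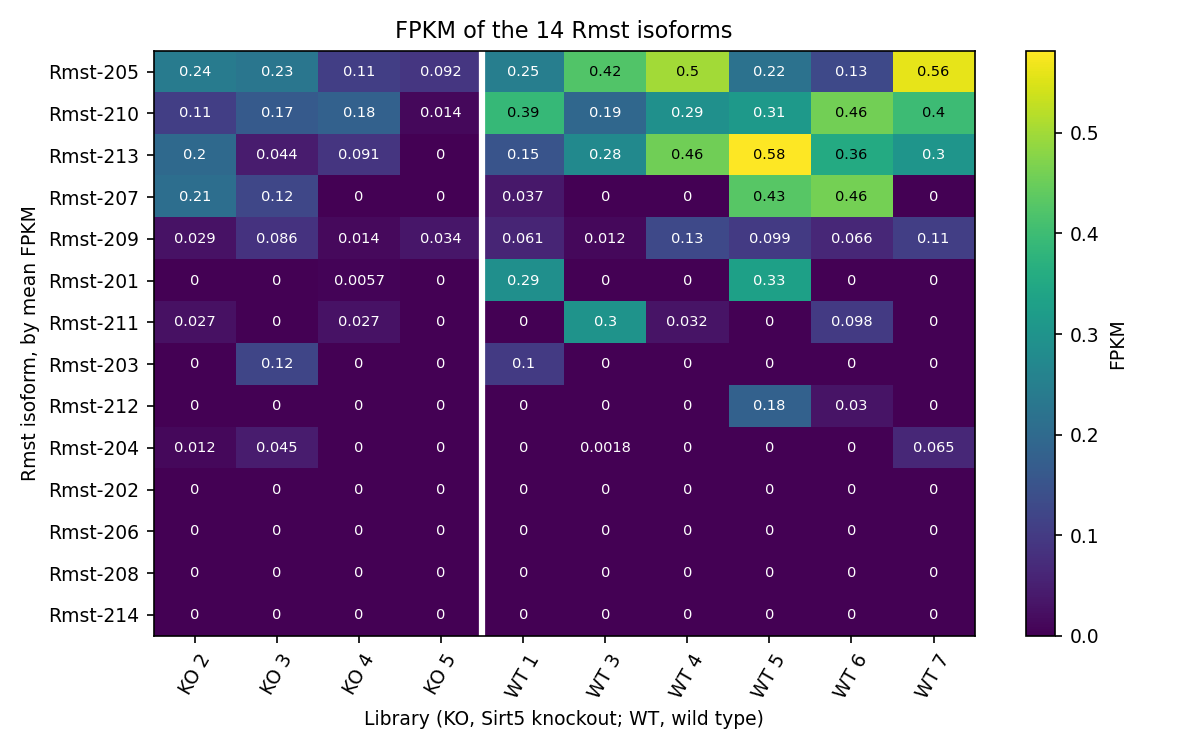
FPKM of each Rmst isoform (rows, by mean level) in each library (columns; KO, Sirt5 knockout, left of the white line; WT, wild type, right of it), with the value written in each cell and shown by colour. Rmst-205, Rmst-210 and Rmst-213 carry most of the level, Rmst-207 appears in 5 libraries, and the 4 lowest rows are 0 throughout.

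Rmst-210 is the long form of the upstream start, with 10 exons and 2891 bases, and was the isoform with the most fragments. It had 0.107, 0.166, 0.180 and 0.0135 FPKM in knockout replicates 2, 3, 4 and 5, against 0.391, 0.194, 0.292, 0.314, 0.457 and 0.400 FPKM in wild-type replicates 1, 3, 4, 5, 6 and 7. It was the only isoform whose groups did not overlap, and the gap was small, between 0.180 FPKM in knockout replicate 4 and 0.194 FPKM in wild-type replicate 3. Its means were 0.117 ± 0.0756 FPKM in knockout and 0.341 ± 0.0939 FPKM in wild type (SD, n = 4 and n = 6). In fragments, it took 32.3 over the knockout libraries and 158 over the wild-type libraries, or 0.336 FPM (95% exact Poisson interval 0.230 to 0.473) and 0.989 FPM (0.841 to 1.16). These pooled intervals leave out the spread between libraries. Of its bases, 794 are in no other isoform, and its longest exon, of 1094 bases, spans the last 2 exons of Rmst-213 and the intron between them. Among the 4182 transcripts with a mean of at least 0.1 FPKM, 47 (1.12%) were lower in knockout without overlap, and 4 Rmst isoforms (Rmst-205, Rmst-207, Rmst-210 and Rmst-213) were above that mean. As Rmst was chosen on this contrast, the count of 1 is given without a reading.

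Rmst-213 is a short form of the same start class, with 8 exons and 792 bases, and begins upstream of the first base of Rmst-210. It had 0.199, 0.0444, 0.0906 and 0 FPKM in knockout replicates 2, 3, 4 and 5, against 0.152, 0.275, 0.456, 0.582, 0.356 and 0.303 FPKM in wild-type replicates 1, 3, 4, 5, 6 and 7. Knockout replicate 2 lay above wild-type replicate 1, so the groups overlapped. No base of Rmst-213 is its own: 776 of its 792 bases are also in Rmst-209 and 678 in Rmst-210, and 2 of its 7 splice junctions are in no other isoform. Its values stand for 6.54 estimated fragments over the 4 knockout libraries and 45.2 over the 6 wild-type libraries, assigned by estimation. The 16 bases shown in capitals in its sixth exon are 1 of the few places where it differs from Rmst-209.

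Rmst-209, the form with the most exons (13, in 2679 bases), was weaker. It had 0.0287, 0.0856, 0.0140 and 0.0344 FPKM in knockout replicates 2, 3, 4 and 5, and lay between 0.0119 and 0.128 FPKM in wild type, with a median of 0.0825. The groups overlapped, with 0.0406 ± 0.0311 FPKM in knockout and 0.0789 ± 0.0415 FPKM in wild type (SD, n = 4 and n = 6). Rmst-211, another form of this class of start, was at 0.0270, 0, 0.0274 and 0 FPKM in knockout replicates 2, 3, 4 and 5. In wild-type replicates 1, 3, 4, 5, 6 and 7 it was at 0, 0.298, 0.0318, 0, 0.0979 and 0 FPKM, and wild-type replicate 3 stood above the rest.

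Rmst-207 was uneven among libraries. It was at 0.210, 0.125, 0 and 0 FPKM in knockout replicates 2, 3, 4 and 5, against 0.0375, 0, 0, 0.430, 0.460 and 0 FPKM in wild-type replicates 1, 3, 4, 5, 6 and 7. It was present in some libraries of each group and listed at 0 in others of each group. Rmst-207 has 2 exons, the larger of 2625 bases, and 70.9% of its 2698 bases lie opposite exons of Gm26700, a lincRNA of the other strand (chr10:92162103-92164690). Gm26700 was listed at 0 in all 10 libraries. It is not stated whether the quantification used strand, so reads of Rmst-207 and Gm26700 cannot be told apart over these bases. In wild-type replicates 5 and 6 Rmst-207 took 29.7 and 35.3 estimated fragments, which was 36.0% and 38.3% of all Rmst fragments there.

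Rmst-205, with 5 exons and 997 bases, carries the internal start and the intron with Mir135a-2. It had 0.241, 0.228, 0.109 and 0.0922 FPKM in knockout replicates 2, 3, 4 and 5, against 0.250, 0.424, 0.501, 0.220, 0.129 and 0.559 FPKM in wild-type replicates 1, 3, 4, 5, 6 and 7. Wild-type replicates 5 and 6 lay among the knockout values, so the groups overlapped, with 0.168 ± 0.0778 FPKM in knockout and 0.347 ± 0.172 FPKM in wild type (SD, n = 4 and n = 6). It shares no base with Rmst-213 and 100 with Rmst-210, so reads could be told apart from those forms over most of its length. This does not hold for other forms, as only 30 of its bases are in no other isoform, though 3 of its 4 splice junctions are in no other isoform. It shares 307 bases with Rmst-209, 360 with Rmst-201 and 413 with Rmst-212, so its level too was assigned by estimation. Rmst-212, the other form of the internal start, was listed at 0 in the 4 knockout samples. In wild type it reached 0.180 FPKM in replicate 5 and 0.0302 FPKM in replicate 6, and was listed at 0 in replicates 1, 3, 4 and 7.

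The shorter transcripts contributed in few libraries. Rmst-201 was at 0.00565 FPKM in knockout replicate 4, against 0.289 FPKM in wild-type replicate 1 and 0.330 FPKM in wild-type replicate 5, and was listed at 0 elsewhere. Rmst-203 was at 0.122 FPKM in knockout replicate 3 and 0.0996 FPKM in wild-type replicate 1 and was listed at 0 elsewhere. Rmst-204 was at 0.0122 FPKM in knockout replicate 2 and 0.0446 FPKM in knockout replicate 3, against 0.00182 FPKM in wild-type replicate 3 and 0.0648 FPKM in wild-type replicate 7, and was listed at 0 elsewhere. Rmst-203 and Rmst-204 were the only isoforms with a higher mean in knockout; the other 8 above 0 had a lower mean in knockout.

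Which isoform accounts for most of the lower sum depends on the scale. Summed FPKM differed by -0.961 between the knockout and wild-type means, and Rmst-213 made up 28.1% of that difference, Rmst-210 23.4%, Rmst-205 18.7% and Rmst-201 10.6%, with values of 0 entered as 0. FPKM divides by length, so a fragment of a short isoform weighs more in this sum. In FPM the difference was -1.42, and Rmst-210 made up 45.6% of it, Rmst-213 15.0%, Rmst-207 13.4% and Rmst-205 12.6%. The plot of the share of each isoform in the difference sets these scales side by side. The lead of Rmst-213 in FPKM was narrow: without wild-type replicate 5 it made up 27.0% and Rmst-210 27.6%. Without knockout replicate 5, Rmst-213 made up 29.4% and Rmst-210 23.1%.

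**Figure D4:**
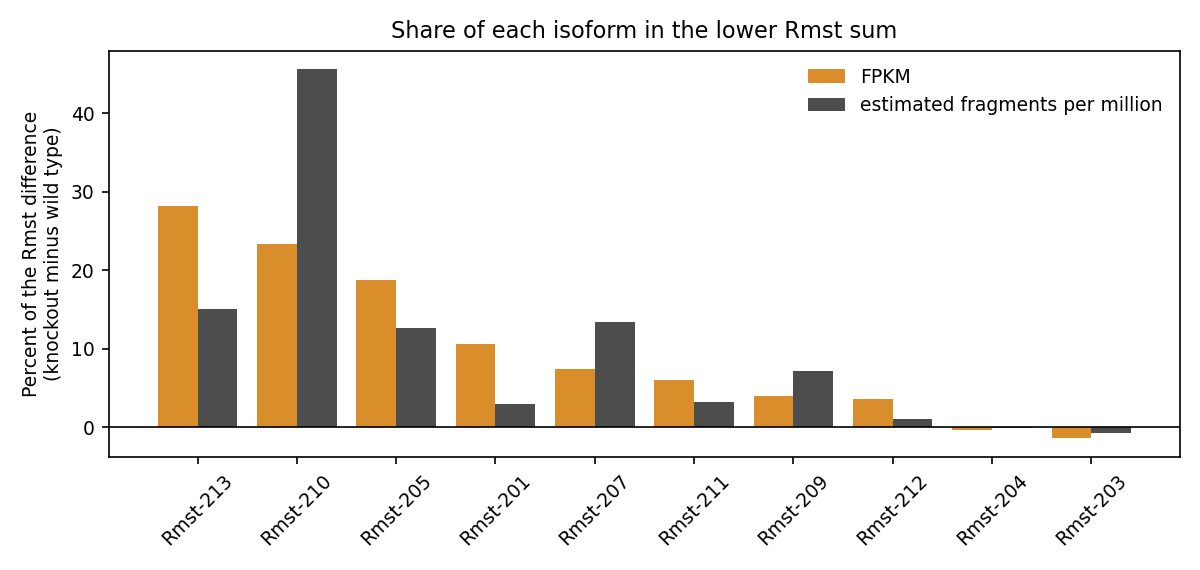
Share of each isoform in the difference between the knockout and wild-type means of Rmst, in percent, for FPKM (orange) and for FPM (grey); bars below 0 are isoforms with a higher mean in knockout. Rmst-213 leads in FPKM at 28.1% and Rmst-210 in fragments at 45.6%.

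By class of start, both the upstream and the internal start were lower on average in knockout. The upstream forms summed to 0.338 ± 0.221 FPKM in knockout and 1.00 ± 0.345 FPKM in wild type (SD, n = 4 and n = 6). They made up 68.9% of the difference in FPKM and 84.4% in FPM. They did not overlap in FPKM, at 0.572 FPKM or less in knockout and 0.641 FPKM or more in wild type. In FPM they did overlap, since the highest knockout sample had 1.13 and the lowest wild-type sample 1.05. The internal forms summed to 0.168 ± 0.0778 FPKM in knockout and 0.382 ± 0.151 FPKM in wild type (SD, n = 4 and n = 6), with overlap. These forms made up 22.3% of the difference in FPKM and 13.6% in FPM. The pooled knockout rate was 0.760 FPM for the upstream start (95% exact Poisson interval 0.595 to 0.955) against 1.96 (1.75 to 2.19) in wild type. For the internal start it was 0.170 (0.0975 to 0.274) against 0.359 (0.272 to 0.464). The pooled intervals of both starts cover counting error only, not the spread between libraries.

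The make-up of Rmst by start class overlapped between the groups and was not tested. Upstream forms held 75.4 ± 11.8% of Rmst fragments in knockout and 80.1 ± 9.30% in wild type (SD, n = 4 and n = 6). Internal forms held 22.2 ± 12.7% in knockout and 17.2 ± 9.84% in wild type. The isoform with the most fragments was Rmst-210 in 2 of 4 knockout libraries and 5 of 6 wild-type libraries.

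Around the gene, the nearest expressed neighbour outside it was Gm20757, a lincRNA on the same strand (chr10:92171301-92375373), whose end lies 6131 bases upstream of the start of Rmst. It had 0.156, 0.692, 0.197 and 0.110 FPKM in knockout replicates 2, 3, 4 and 5, against 0.378, 0.734, 0.736, 0.438, 0.706 and 0.473 FPKM in wild-type replicates 1, 3, 4, 5, 6 and 7. Knockout replicate 3 lay within the wild-type range and the other 3 knockout samples below it. Its mean was under 1 FPKM, and at a lower filter of 0.1 FPKM its log2 fold change was -0.31 (SE 0.140) with a limma adjusted p of 0.596 (unadjusted p = 0.0507), so the difference did not pass. Of the 10 annotated genes of the table within 1 Mb of Rmst, 7 were listed at 0 in every sample, and none reached a mean of 1 FPKM. Gm49783 lay between 0.00838 and 0.499 FPKM in knockout and between 0.00242 and 0.572 FPKM in wild type, and Gm31592 did not pass 0.0221 FPKM.

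The 5 annotated genes named here were the most like Rmst, by Pearson correlation of log2(FPKM + 1) over the 10 samples among 260 candidates; the shared contrast between genotypes enters these values, which are a description. They were 1010001N08Rik (r = 0.915), Gm20619 (0.897), AC158975.2 (0.886), Tbx3os1 (0.845) and Gm13111 (0.842). After the mean of each genotype was subtracted, the values were 0.658, 0.706, 0.809, 0.533 and 0.630 in the same order, over the same 10 samples. Gm20619, a lincRNA of chromosome 6 (6248659 to 6378675, plus strand), had 1.15, 1.82, 0.871 and 0.314 FPKM in knockout replicates 2, 3, 4 and 5, against 1.75, 2.41, 3.32, 2.62, 2.07 and 2.09 FPKM in wild-type replicates 1, 3, 4, 5, 6 and 7. Knockout replicate 3 lay just above the lowest wild-type sample. AC158975.2, a lincRNA of chromosome 18, followed the order of Rmst among the knockout samples, at 4.67, 3.66, 1.52 and 0 FPKM in knockout replicates 2, 3, 4 and 5, against 4.88 to 5.57 FPKM in wild type. 1010001N08Rik lay between 0.768 and 1.495 FPKM in knockout and between 1.98 and 2.60 FPKM in wild type. Tbx3os1, antisense to the cardiac conduction factor gene Tbx3, lay between 0.893 and 1.37 FPKM in knockout and between 1.46 and 2.41 FPKM in wild type. These groups did not overlap, whereas those of Gm13111 did, at 0.268 to 1.01 FPKM in knockout and 0.997 to 1.70 FPKM in wild type. In all 5 genes, as in Rmst, knockout replicate 5 was the lowest of the 10 libraries. Choosing genes by likeness to Rmst favours such a pattern, so nothing is read from it. Knockout replicate 5 enters both sets of correlations, which were not computed without it.

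**Figure D5:**
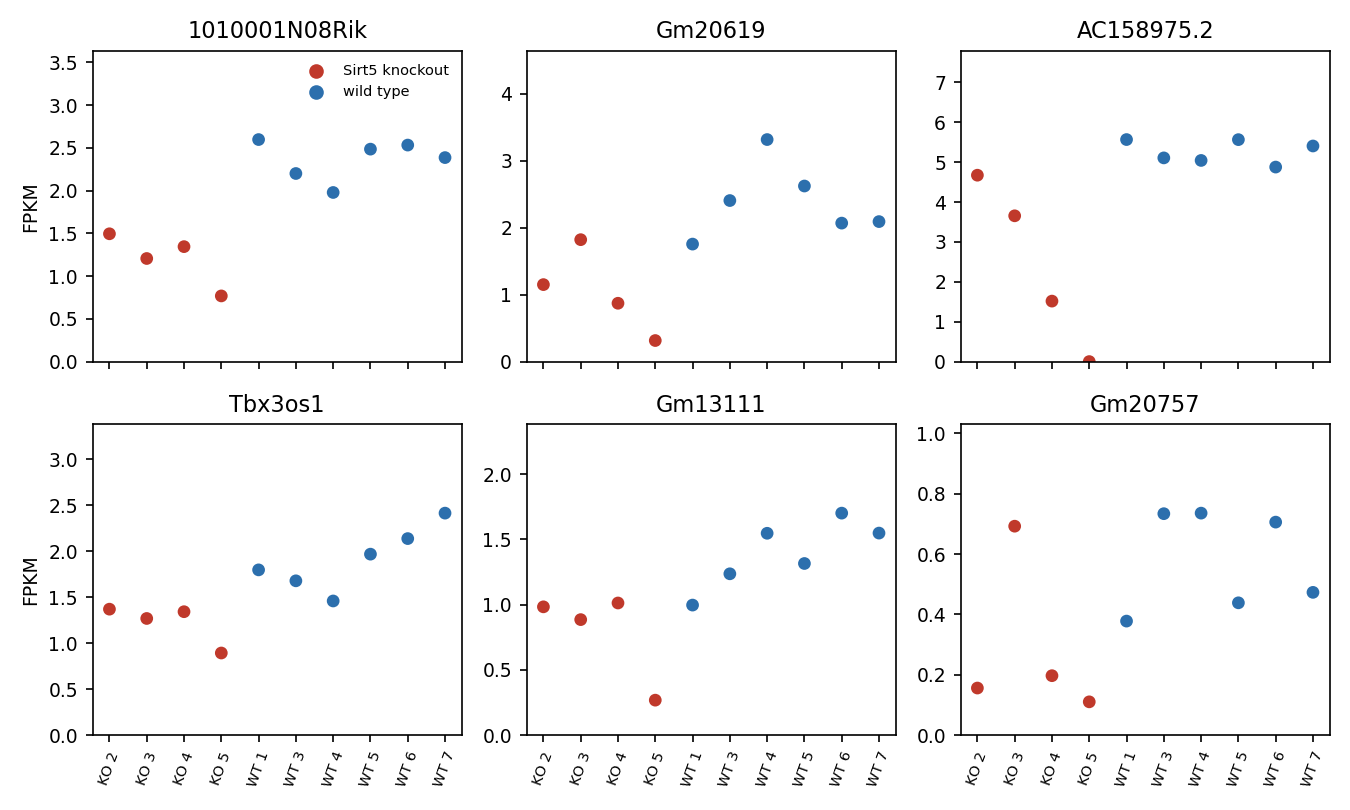
FPKM of the 5 annotated genes whose pattern was most like that of Rmst, and of its upstream neighbour Gm20757, in each library (red, Sirt5 knockout; blue, wild type). KO 5 is the lowest library in every panel, and KO 3 of Gm20757, at 0.692 FPKM, lies among the wild-type points.

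Other long non-coding RNAs known from the nervous system were set beside Rmst, and none of those tested passed the adjusted threshold. Of 30 on the list, 25 were in the table, 15 were above 0 in a sample and 6 had a mean of at least 1 FPKM and were tested. The count called by limma was 0, against 0.178% of all genes and loci (2 of 1122). At an unadjusted p below 0.05, 1 of the 6 was lower in knockout and 0 were higher, where 11.7% of all genes and loci passed in either direction. Their median log2 fold change was 0.17, beside -0.03 over all genes tested, and without knockout replicate 5 it was 0.03 beside -0.02. The lower one was 1700020I14Rik, whose place on the list is uncertain, with 3.66, 44.1, 45.1 and 25.3 FPKM in knockout replicates 2, 3, 4 and 5 and 49.0 to 67.0 FPKM in wild type (log2 fold change -1.38, SE 0.570, limma adjusted p = 0.404). Levels within the list differed widely. Its 19 members with a mean below 1 FPKM summed to 0.348 to 1.05 FPKM in knockout and 0.177 to 0.472 FPKM in wild type. Most of this was Mirg, at 0.276 to 1.02 FPKM in knockout and 0.170 to 0.394 FPKM in wild type. The 18 others summed to 0.0329 to 0.201 FPKM in knockout and 0.00726 to 0.0783 FPKM in wild type. Among them, C130071C03Rik and Dlx6os1 had the highest knockout means, 0.0498 ± 0.0642 and 0.0355 ± 0.0254 FPKM (SD, n = 4). In wild type they had 0.00659 ± 0.00741 and 0.00254 ± 0.00623 FPKM (SD, n = 6). Sox2ot, which overlaps the gene of the neural factor SOX2, did not pass 0.0284 FPKM in knockout and 0.0622 FPKM in wild type. Miat, a nuclear RNA of neurons, did not pass 0.0241 FPKM in knockout and 0.0129 FPKM in wild type. Sox2ot, Sox1ot and Mir124-2hg had a lower mean in knockout. These members were named after their values were seen. Pantr1, Dlx1as, Otx2os1 and Mir124a-1hg were among 10 listed at 0 in every library. The other 6, which were tested, included Firre, a nuclear RNA, at 4.64 ± 2.60 FPKM in knockout and 3.55 ± 0.492 FPKM in wild type, and Meg3, an imprinted RNA, at 3.84 ± 2.90 FPKM in knockout and 2.14 ± 0.851 FPKM in wild type (SD, n = 4 and n = 6). The whole list summed to 13.5 to 57.3 FPKM in knockout and 59.99 to 77.6 FPKM in wild type. Without 1700020I14Rik, it summed to 9.88 to 25.2 FPKM in knockout and 9.82 to 13.7 FPKM in wild type.

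Host RNAs of other microRNAs were read in the same way, as Rmst holds microRNA genes. The lists share members, and Meg3 and Rian were tested in both. Of 29 on the list, 22 were in the table and 9 were tested, of which limma called 0, beside 0.178% of all genes and loci. At an unadjusted p below 0.05, 1 of the 9 had a higher and 0 a lower level in knockout, a share close to the 11.7% of all genes and loci in either direction. Their median log2 fold change was 0.02, beside -0.03 over all genes tested, and without knockout replicate 5 it was -0.05 beside -0.02. Bvht, a transcript of cardiac lineage commitment that lies beside a microRNA cluster, was the higher one. It had 1.73, 1.45, 2.08 and 1.58 FPKM in knockout replicates 2, 3, 4 and 5 and 0.959 to 1.65 FPKM in wild type, and the groups overlapped (log2 fold change 0.27, SE 0.113, limma adjusted p = 0.404). At the level of single transcripts, limma called 0 of 4182 (0%), and at an unadjusted p below 0.05 there were 204 with a lower and 134 with a higher level in knockout.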

How the data were processed

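The 10 left ventricle samples, 4 Sirt5 knockout and 6 wild type, were grouped by their titles. The deposited values are FPKM per transcript, which the authors made from ribosomal RNA-depleted paired-end reads mapped to GRCm38 with HISAT2 and quantified with StringTie 1.2.0, per the series' design text. The table holds 20741 long non-coding transcripts, 19112 of them with Ensembl identifiers, of which 18969 matched GENCODE M21. Isoform FPKM were summed per gene or assembled locus, and log2(FPKM + 1) of the 1122 with a mean of at least 1 FPKM was fitted with limma 3.58.1 (R 4.3.3, intensity trend, Benjamini-Hochberg adjustment, threshold 0.05). Single transcripts were fitted as log2(FPKM + 0.1) at a mean of at least 0.1 FPKM (4182). The scripts were tested on simulated data.

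Read counts were not analysed here. Depth was estimated from the FPKM times length that 1 fragment is worth in single-transcript genes of at least 400 bases. Each isoform's fragments were estimated from its FPKM, length and that depth. Counted in steps of 0.5 fragments, 45.9% to 51.4% of low values fell within 0.05 of a whole number of steps, so these are estimates. The genes named by a rule are all Rmst isoforms, the 5 annotated genes most correlated with Rmst, its neighbours within 1 Mb, and members of 2 lists at an unadjusted p below 0.05. Outside that rule, C130071C03Rik, Dlx6os1, Sox2ot, Sox1ot, Mir124-2hg, Miat, Mirg, Pantr1, Dlx1as, Otx2os1, Mir124a-1hg, Firre and Meg3 are named to show levels within the list. Rian is named as a member of both lists. Malat1 and Rmrp are named for values that stood apart. The members, lists and tests were chosen with earlier results of these data known. Alternatives covered pseudocounts, filters, scaling, variance model, single samples left out and a replicate block. For the Rmst sum and isoform shares, the block kept only replicates 3, 4 and 5 of each group. Correlations between samples of the same number, computed apart from the block, were -0.163, 0.176 and 0.0807. Those between other knockout and wild-type samples ran from -0.221 to 0.252, so these values cannot settle whether samples were paired. Python 3.11.15 with pandas 2.3.3, numpy 2.4.6, scipy 1.17.1 and matplotlib 3.10.9 was used for the rest.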

Additional observations from a re-analysis of the deposited data

Results flagged for a closer look

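Among 45 groups of values, 8 held a sample far from the others of its group, and 6 of the 8 were Rmst isoforms that are listed at 0 in some libraries. The rule flags about 1 in 20 for normally distributed values, a rate that does not apply here. A lone value above 0 among zeros is flagged by construction, however small it is. Rmst-212 stood at 0.180 FPKM in wild-type replicate 5, with the other wild-type samples between 0 and 0.0302 FPKM. Rmst-211 stood at 0.298 FPKM in wild-type replicate 3, with the others between 0 and 0.0979 FPKM. Rmst-204 stood at 0.0648 FPKM in wild-type replicate 7, with the others at 0.00182 FPKM or less. Rmst-203 stood at 0.122 FPKM in knockout replicate 3 and at 0.0996 FPKM in wild-type replicate 1, and was listed at 0 in all other samples of both groups. Rmst-201 stood at 0.00565 FPKM in knockout replicate 4 and was listed at 0 in the other knockout samples. Outside Rmst, its neighbour Gm20757 stood at 0.692 FPKM in knockout replicate 3, with the other knockout samples between 0.110 and 0.197 FPKM. Malat1 stood at 951 FPKM in knockout replicate 5, with the other knockout samples between 59.8 and 78.9 FPKM.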

How the results depend on the processing

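The lower Rmst sum in knockout kept its direction under all 17 alternatives. As the groups did not overlap, fewer samples, medians or another pseudocount could not reverse it, so this adds no support. The log2 difference of -0.71 in the Rmst sum became -1.47 with a pseudocount of 0.1 and -1.70 with 0.01, where low values weigh more by construction. It ran from -0.80 to -0.57 when single samples were left out. Rmst-213 made up 28.1% of the difference in FPKM but 15.0% in fragments per M mapped fragments (FPM), a scale chosen after seeing the data, and 24.5% to 30.8% with single samples left out. The share of Rmst-210 moved to 13.0% with the replicate block and 45.6% in FPM. With the replicate block the share of Rmst-213 was 34.8%. Over all settings, Rmst-213 had the largest share in 14 and Rmst-210 in 2. The depth test, exact permutation p = 0.0571, ran from 0.0476 (without knockout replicate 2) to 0.119.

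Gene calls by limma were few and unstable. The 2 genes or loci called became 0 with a pseudocount of 0.01, 0 with no filter, 0 with the replicate block, 1 at a mean of at least 0.1 FPKM, 1 without the intensity trend, 4 with quantile normalization, 5 with robust empirical Bayes and 7 with a common sum per sample. They ran from 0 (without knockout replicate 2) to 2 with single samples left out. The 0 transcripts called became 4 with a pseudocount of 0.01, and ran from 0 to 2 with single samples left out. The cause was not tested. The small number of Rmst fragments, 5.28 to 92.1 a library, limits every isoform value.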
